A study of Mus musculus with 9 samples.

Results

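The genes described here are 10 mouse genes of Notch signalling and of the Iroquois (Irx) homeobox family that take part in patterning the kidney tubule: Notch1, Notch2, Jag1, Dll1, Hes1, Hey1, Heyl, Lfng, Irx1 and Irx2. They were chosen by name. Every non-control probe carrying 1 of these names on the arrays of postnatal day (PND) 3 was taken, which gave 18 probes for 10 genes, of 41174 probes for 28786 gene names in all. The study compared mice homozygous for the Glis3zf mutation (Glis3zf/zf), in the zinc finger transcription factor Glis3, with wild-type (WT) mice, both of strain C57BL/6. At PND3 each genotype was represented by 1 pool of RNA from 2 pups. From each pool 500 ng was amplified and labelled with Cy3 or Cy5, and the pools were hybridised together on 2 Agilent arrays with the dyes exchanged, called below the mutant-Cy3 array and the mutant-Cy5 array after the dye of the mutant RNA. Both arrays hold the same pools, so there is 1 sample per genotype, the agreement of the arrays is technical, and no p-value can be given for any PND3 difference. Samples of embryonic day 15.5 (E15.5), 4 mutant and 3 WT, were measured on another array type whose probe sets were not paired with gene names here, and are not analysed here.

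Notch receptors sit in the cell membrane and are activated by ligands of the Delta and Jagged families on a neighbouring cell. Cleavage then frees the receptor's intracellular part, which joins the DNA-binding protein RBPJ in the nucleus and switches on repressors of the Hes and Hey families. In the developing mouse kidney, Notch2 signalling is needed for proximal tubule and podocyte fates, and Irx1 and Irx2 are transcribed in the middle of the early nephron, the region that gives rise to the loop of Henle. In the pancreas, the same pathway holds progenitors back from endocrine differentiation through Hes1.

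The label of the PND3 arrays is pancreas, and several defining pancreas genes were at background. The glucagon gene Gcg and the pancreatic polypeptide gene Ppy were not well above background in either pool on either array, and the insulin gene Ins1 was well above it only in the WT pool on 1 array. Among marker genes with a probe, 5 of 8 islet and 7 of 9 acinar genes were above background. None gave a mean scanner signal over 1000 in both pools. That level was passed by 9 of 10 proximal tubule genes, 5 of 7 thick limb and distal tubule genes and 6 of 7 collecting duct genes. Since signals of different probes do not compare amounts, these counts do not give the share of either tissue. In bulk RNA, fewer cells of a type and less RNA per cell cannot be told apart. The single Glis3 probe gave signals of 3.88 and 3.39 in the mutant pool, not well above background on either array, against 22.1 and 21.5 in the WT pool, where it was well above background on both. The 7 genes of oocytes and ovary differed far more than any of the 10 genes: their summed signal was 418.6 and 419.6 in the mutant pool, against 3094 and 2867 in the WT pool. All 7 were at least 2-fold lower in the mutant pool on both arrays, against 0.158% of all measured genes. The list was chosen with earlier results of these data known. Dppa3 and Oas1d, among the 7, were well above background on both arrays only in the WT pool. Of 6 fat cell genes, 4 were at least 1.2-fold lower on both arrays, against 4.55% of all measured genes. The ratios (log2 of mutant over WT) of these 4 were -1.17 for Ucp1, -0.95 for Cidea, -0.90 for Plin1 and -0.85 for Adipoq. The median of the 6 was -0.87. Their summed signals were 56270 and 52518 in the mutant pool, against 68427 and 62040 in the WT pool, most of it from Fabp4, which stood at -0.20 and was not counted. Their part in the values below was not tested.

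The sequences of the probes matter here because several genes had probes that gave ratios of different sign. They are shown for the genes that the results turn on: Dll1 and Notch1, each with a brightest probe printed 10 times per array, and Irx1 and Irx2, whose probes differed in sign. Each probe is 60 bases long. The files do not place any probe in its transcript, so probes were read as coding from general knowledge and this was not computed. Probes read as coding are given whole, and of the others the first 30 bases are given. Probes are numbered within a gene by brightness.
Dll1 probe 1: gattactatgagccagtctttccttgaact
Notch1 probe 1: ggcactaggggaaaaacatatctgttccaa
Irx1 probe 1: ctttgtttcttttttcccctttctgtatat
Irx1 probe 2: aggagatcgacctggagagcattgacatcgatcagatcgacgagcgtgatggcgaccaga
Irx2 probe 1: tatgagaacttgttgtcatagtatagcttc
Irx2 probe 2: tacctataggagggccaaggtcagcagtgc
Irx2 probe 3: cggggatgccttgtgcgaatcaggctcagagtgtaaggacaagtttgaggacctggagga

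On both arrays, all 18 probes were well above background in each pool. No member reached 2-fold with both arrays pointing one way, which 0.191% of the 20922 measured genes did (0.0335% higher in the mutant pool and 0.158% lower). At 1.2-fold or more on both arrays, 1 of the 10 genes counted, Dll1, which was lower in the mutant pool, against 7.75% of all measured genes in either direction, 4.55% lower and 3.21% higher. The share of 1 in 10 is near that background. Ratios below are log2 of mutant over WT, so a negative value is lower in the mutant pool, and each is the mean of both arrays for the brightest probe. The 10 ratios lay between -0.31 and 0.06, with a median of -0.08 against -0.01 over all measured genes. On both arrays 4 genes were lower (Notch1, Dll1, Irx1 and Irx2), as were 37.9% of all genes, and 1 was higher (Notch2), as were 30.8%. The other 5 had opposite signs on the arrays, and among all genes 31.3% did. No order of levels among the 10 genes is given, since they were read with different probes. Statements below on whether the pools overlap compare signals across both arrays, whereas each ratio compares the pools within 1 array. The share of all measured genes whose pools do not overlap was not computed, so these statements only describe the signals.

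**Figure D1:**
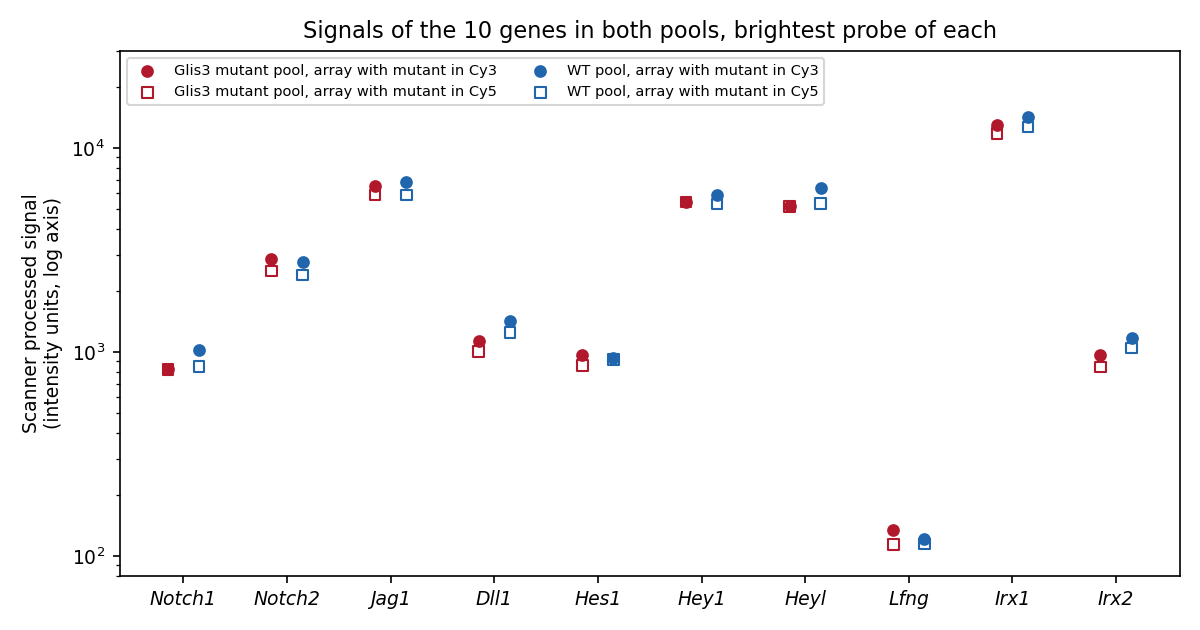
Scanner processed signal (intensity units, log axis) of the brightest probe of each of the 10 genes, in the Glis3 mutant pool (red, left) and the WT pool (blue, right), with filled circles for the mutant-Cy3 array and open squares for the mutant-Cy5 array. The pools lie close together for every gene, and for Notch1, Dll1, Heyl and Irx2 both mutant points lie below both WT points. How many of all measured genes do the same was not computed.

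Dll1, a Delta-type ligand transcribed in early nephrons of the mouse, had the lowest ratio of the 10 genes. Its probe gave signals of 1129 and 1003 in the mutant pool, against 1426 and 1246 in the WT pool, on the mutant-Cy3 and mutant-Cy5 arrays. Both mutant signals lay below both WT signals. The ratio was -0.31, a 1.24-fold difference, with -0.32 and -0.31 on the separate arrays. Because the probe was printed 10 times per array, its technical spread can be given: the spots averaged -0.32 ± 0.06 (SD, n = 10 spots) on the mutant-Cy3 array and -0.31 ± 0.05 (SD, n = 10 spots) on the other. All 10 spots were below 0 on both arrays, with extremes of -0.41 and -0.23. The difference was thus larger than the spread between spots and between arrays, which says nothing of the spread between animals. Among all measured genes 91.3% had a smaller difference in either direction.

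Jag1, the Jagged-type ligand, differed little. Its brightest probe gave 6501 and 5880 in the mutant pool, against 6800 and 5879 in the WT pool. The signals of the pools overlapped, and the ratios of -0.14 and 0.04 had opposite signs, with a mean of -0.05. A dimmer Jag1 probe stood at -0.02, with -0.01 and -0.03 on the arrays. That probe was read as coding sequence of the intracellular part and is shown for contrast with the Irx probes.
Jag1 probe 2: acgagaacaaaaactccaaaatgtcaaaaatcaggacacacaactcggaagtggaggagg

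**Figure D2:**
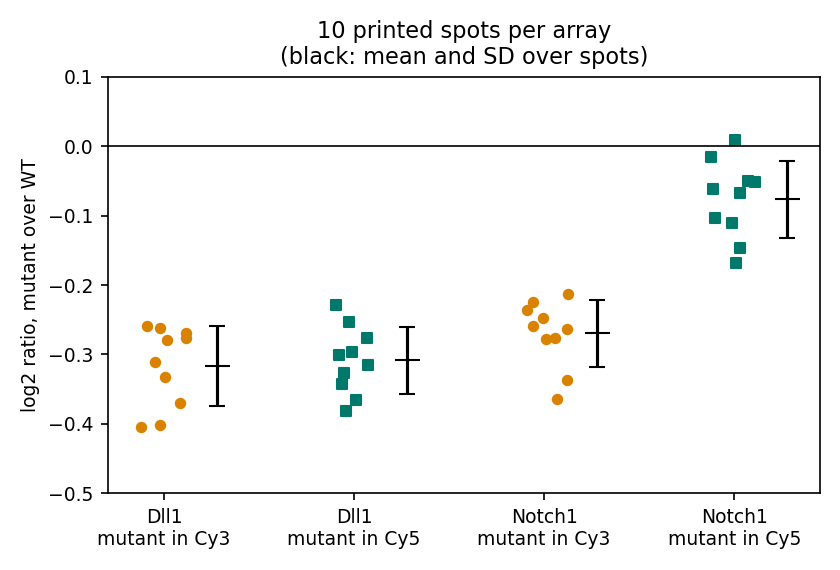
log2 ratio of mutant over WT for each of the 10 printed spots of the Dll1 probe and of Notch1 probe 1 on each array (orange circles, mutant in Cy3; green squares, mutant in Cy5), with the mean and SD over spots in black. The Dll1 spots cover overlapping ranges on both arrays, whereas the Notch1 spots average -0.27 on 1 array and -0.08 on the other.

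Notch1, a receptor also present in early nephrons of the mouse, was slightly lower in the mutant pool on both arrays. Its brightest probe gave 826.5 and 818.5 in the mutant pool, against 1025 and 847.2 in the WT pool. Both mutant signals lay below both WT signals, by a narrow margin on the mutant-Cy5 array. Over 10 spots the ratio was -0.27 ± 0.05 on the mutant-Cy3 array and -0.08 ± 0.06 on the mutant-Cy5 array (SD, n = 10 spots each). The arrays thus differed by 0.19, several times the spread of spots within an array. On the second array 9 of 10 spots were below 0. A second Notch1 probe gave -0.10 and -0.16, so both Notch1 probes were lower on both arrays, with means of -0.17 and -0.13.

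Notch2, the receptor required for proximal nephron fates in mice, was not lower. Its brightest probe gave 2861 and 2496 in the mutant pool, against 2776 and 2382 in the WT pool, and its ratio was 0.06, with 0.11 and 0.02 on the arrays. The pools overlapped. The dimmer Notch2 probes disagreed with each other, at -0.05 for a probe in the coding sequence and 0.18 for the third probe, which was higher on both arrays at 0.16 and 0.19. With each array centred on its median instead, Notch2 stood at -0.14, or at -0.03 relative to the median of all genes, which moved to -0.11. Its direction therefore depends on the scaling.

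Lfng encodes lunatic fringe, a glycosyltransferase that modifies Notch receptors and changes which ligands activate them. The Lfng probe gave 134.5 and 114.0 in the mutant pool, against 120.9 and 114.2 in the WT pool. Its ratios of 0.12 and -0.10 cancelled to 0.01, and the pools overlapped. A probe that carries only a transcript identifier, with a description naming lunatic fringe, was outside the rule and was looked up after the values were seen. It gave 453.1 and 393.4 in the mutant pool, against 490.6 and 462.6 in the WT pool, and a ratio of -0.17.

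The Hes and Hey repressors are direct targets of activated Notch and are often used as its readout. Hes1 gave 970.0 and 857.0 in the mutant pool, against 937.1 and 917.9 in the WT pool. The Hes1 ratio was -0.02, with 0.10 and -0.14 on the arrays, and the pools overlapped. Hey1 gave 5444 and 5445 in the mutant pool, against 5855 and 5323 in the WT pool. Its ratio of -0.05 again joined opposite signs, -0.16 and 0.06. Neither target therefore differed by more than its arrays did.

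Heyl, a Hey family repressor with strong expression in vascular smooth muscle of the mouse, had the least reproducible ratio of the 10. The brightest Heyl probe gave 5170 and 5158 in the mutant pool, against 6379 and 5338 in the WT pool. Both mutant signals lay below both WT signals, yet the normalized ratios were -0.35 and 0.01, a gap of 0.36 between arrays where 95% of measured genes had a gap under 0.32. The second Heyl probe had the opposite pattern, with -0.10 and -0.36. Its signals were 1185 and 971.0 in the mutant pool, against 1300 and 1266 in the WT pool. Averaged over arrays the probes stood at -0.17 and -0.23. The 7 genes of smooth muscle and pericytes had a median ratio of 0.13, with summed signals of 139917 and 136946 in the mutant pool and 136290 and 122064 in the WT pool, and none of the 7 was 1.2-fold apart on both arrays. The 8 endothelial genes had a median of -0.07 and summed signals of 39866 and 37825 in the mutant pool, against 45465 and 39741 in the WT pool. Of these 1 was 1.2-fold lower on both arrays, against 4.55% of all measured genes. It was Sox17, a transcription factor of arterial endothelium, at -0.36. The largest part of the smooth muscle sums came from Acta2, at 0.13, and of the endothelial sums from Emcn, at -0.07.

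**Figure D3:**
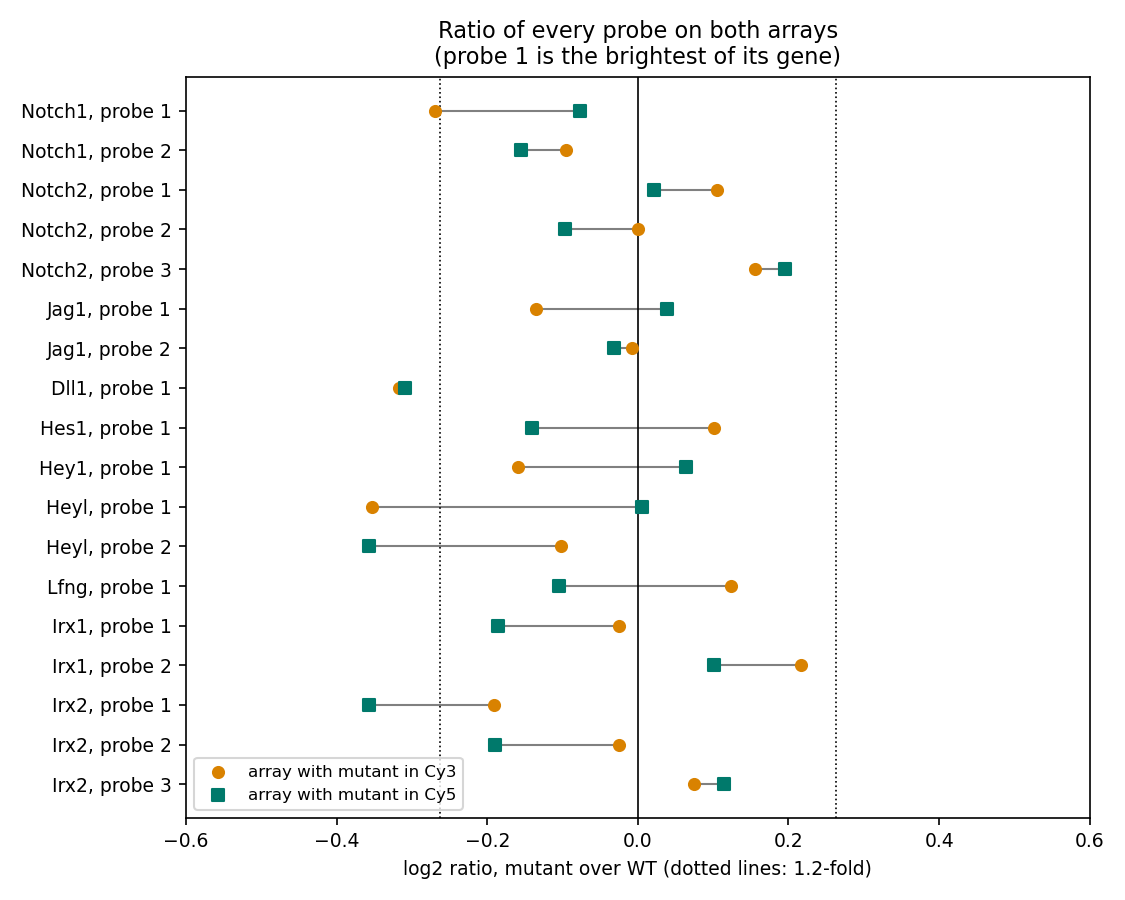
log2 ratio of mutant over WT for all 18 probes of the 10 genes (rows, probe 1 the brightest of its gene) on the mutant-Cy3 array (orange circles) and the mutant-Cy5 array (green squares), joined by a line. Dotted lines mark 1.2-fold. The Dll1 probe alone has both points beyond a dotted line, and Irx1 and Irx2 have probes on both sides of 0.

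Irx2 was second to Dll1 in the size of its ratio, but its probes differed. Irx2 probe 1 gave 968.2 and 843.9 in the mutant pool, against 1174 and 1047 in the WT pool. Both mutant signals lay below both WT signals, and the ratio was -0.27, a 1.21-fold difference, with -0.19 and -0.36 on the arrays. It was not counted at 1.2-fold because the mutant-Cy3 array fell short. Probe 2 stood at -0.11, with -0.02 and -0.19. Probe 3, shown above as coding sequence, was higher in the mutant pool on both arrays, at 0.08 and 0.11, with signals of 169.7 and 151.5 in the mutant pool, against 153.2 and 144.4 in the WT pool. The mean over the 3 probes was -0.10.

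Irx1 showed the same split between probes. Probe 1 gave 13039 and 11799 in the mutant pool, against 14123 and 12693 in the WT pool, with a ratio of -0.11 made of -0.02 and -0.19. The pools overlapped across arrays, although the mutant signal was the lower within each array. Probe 2, shown above as coding sequence, gave 436.7 and 384.7 in the mutant pool, against 356.6 and 355.1 in the WT pool. Both of its mutant signals lay above both WT signals, and its ratio was 0.16, with 0.22 and 0.10. Averaged over both probes Irx1 stood at 0.03, so neither direction can be given for Irx1. In both Irx genes the brightest probe was lower and the much dimmer probe read as coding higher in the mutant pool. Notch2 had the reverse, with its brightest probe at 0.06 and its probe read as coding at -0.05.

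Probe disagreement was not limited to the Irx genes. Of the 6 genes with more than 1 probe, Notch1, Jag1 and Heyl had probes of a single sign, and Notch2, Irx1 and Irx2 did not. Over all 18 probes, 8 were lower on both arrays, 4 higher on both and 6 of opposite sign, and 1 of the 18 was 1.2-fold apart on both. The arrays differed by 0.01 to 0.36 among the 10 genes, with a median of 0.18 against 0.11 over all measured genes. The gap was above the all-gene median for 8 of the 10. The lower ratio was on the mutant-Cy3 array for 5 genes and on the other for 5.

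**Figure D4:**
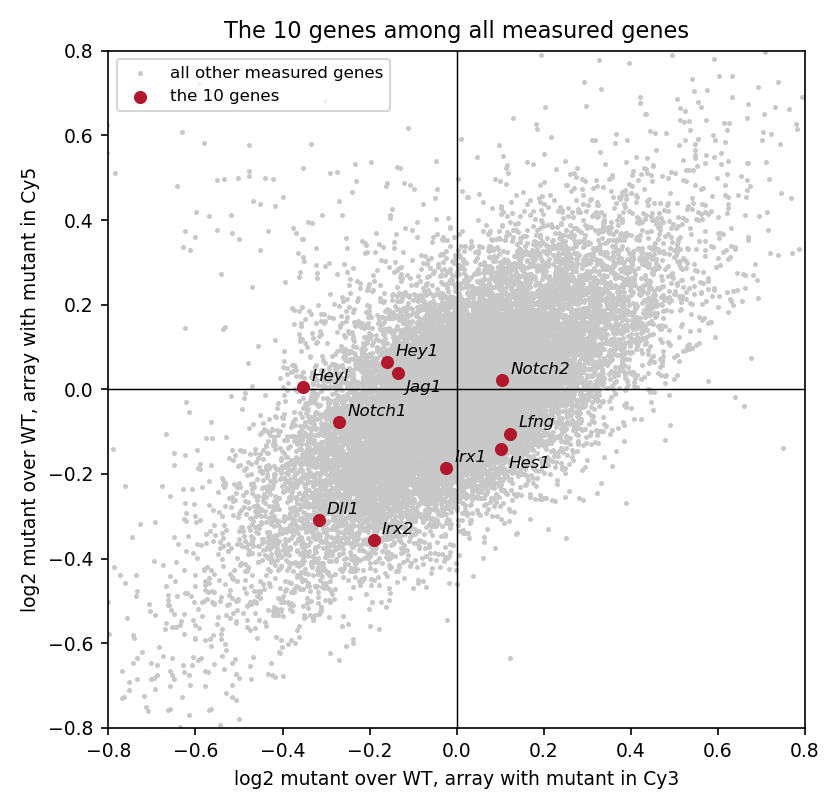
Each measured gene's log2 ratio of mutant over WT on the mutant-Cy3 array (x axis) against the mutant-Cy5 array (y axis), with the 10 genes in red and all others in grey. The axes end at 0.8, which leaves 141 genes outside. The 10 genes lie within the cloud, and Dll1 and Irx2 are farthest toward the lower left.

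The thick ascending limb, part of the loop of Henle, and the distal tubule gave similar signals in both pools. The 7 marker genes had a median ratio of 0.01, with none counted at 1.2-fold. Their summed signals were 117500 and 107341 in the mutant pool, against 120263 and 114406 in the WT pool. Of the 4 other Irx genes, Irx3 stood at 0.05, Irx4 at 0.07, Irx5 at -0.14 and Irx6 at -0.02, and none counted at 1.2-fold. Signals of Irx3 were 42.4 and 47.7 in the mutant pool, against 44.0 and 37.0 in the WT pool, and those of Irx5 were 95.8 and 88.9 in the mutant pool, against 112.7 and 96.4 in the WT pool.

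Among 30 other genes of the Notch pathway, all measured, 1 was at least 1.2-fold higher on both arrays and 3 lower. That is 13.3%, against 7.75% of all measured genes. The median ratio of the 30 was 0.00. The 3 lower genes were Dlk1, Dner and Nrarp. Dlk1, a Delta-like protein that lacks the domain by which canonical ligands bind Notch, had the largest difference, at 2448 and 2378 in the mutant pool, against 5024 and 4303 in the WT pool. Its pools did not overlap, and its ratio was -0.93, with -1.02 and -0.84 on the arrays. Dlk1 is also a marker of fat cell precursors, and the fat cell genes named above were lower too. That parallel was not tested. Dner, another atypical ligand, stood at -0.39, with signals of 110.8 and 98.6 in the mutant pool, against 163.9 and 139.5 in the WT pool. Nrarp, a Notch target that limits the pathway, stood at -0.28, with signals of 898.4 and 812.5 in the mutant pool, against 1094 and 984.8 in the WT pool. The gene that was higher was Maml3, a coactivator of the RBPJ complex, at 0.34. Its signals were dim, at 73.4 and 61.3 in the mutant pool, against 42.6 and 36.4 in the WT pool. Dlk1, Dner and Maml3 each had 2 probes, of which only the brightest is given here.

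The other genes of the pathway did not count at 1.2-fold. The receptors Notch3 and Notch4 stood at -0.13 and 0.14. The ligands Dll4, of endothelium, and Jag2 stood at 0.25 and 0.01. Of the proteins that cleave the receptor, Adam17 stood at 0.26 and the gamma-secretase subunit Aph1a at 0.24, whereas the subunit Psenen stood at -0.23. Rbpj, the DNA-binding partner of Notch, stood at -0.03. Among further targets Hes5 stood at -0.11 and Hey2 at -0.24.

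**Figure D5:**
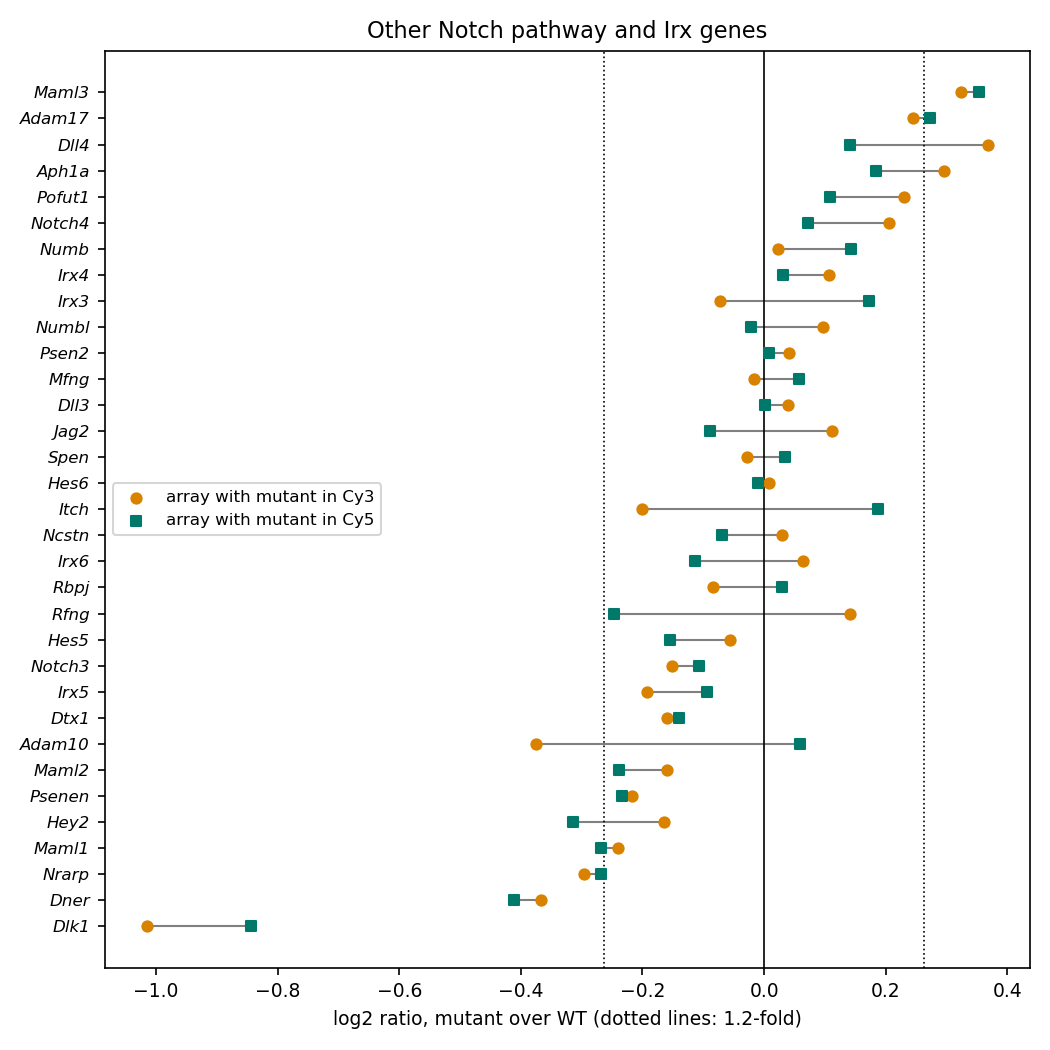
log2 ratio of mutant over WT of 29 of the 30 other Notch pathway genes and 4 other Irx genes, ordered by mean ratio from highest (top), on the mutant-Cy3 array (orange circles) and the mutant-Cy5 array (green squares). Dotted lines mark 1.2-fold. Dlk1 stands apart at the bottom with a mean of -0.93, and most genes straddle or lie near 0.

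Other genes that pattern the nephron gave a similar picture. Of 24, all measured, 1 was at least 1.2-fold higher on both arrays and none lower. Of all measured genes 3.21% were higher and 4.55% lower by this rule. The median ratio of the 24 was 0.01. The higher gene was Gata3, a transcription factor of the collecting duct lineage, with signals of 7706 and 6845 in the mutant pool, against 5097 and 4944 in the WT pool. Its pools did not overlap and its ratio was 0.54. The other 3 with the largest ratios were Emx2, a homeobox gene of the ureteric bud, at -0.32, Lgr5 at -0.29 and Sall1, which maintains nephron progenitors, at 0.26. The 6 nephron progenitor genes had a median ratio of 0.18 with none 1.2-fold apart on both arrays, the 6 podocyte genes one of 0.05 with none, and the 10 proximal tubule genes one of -0.08 with 1 lower, Kap, at -0.59. Of the 7 leukocyte genes 1 was at least 1.2-fold lower on both arrays, Tyrobp, at -0.58, against 4.55% of all measured genes. At any size 6 were lower on both arrays, as were 37.9% of all measured genes. The median of the 7 was -0.17. Their summed signals were 20978 and 19519 in the mutant pool and 26091 and 23576 in the WT pool. Most of each sum came from Lyz2, which stood at -0.27 and was not counted.

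Promoter sequence from RefSeq (GRCm38.p6) was held for 6 of the 10 genes, in 7 windows of 250 bases before a transcription start. No window was held for Hes1, Hey1, Heyl or Irx1, so these genes were not searched. The core of the site bound by RBPJ, TGGGAA, was searched on both strands. It occurred in 2 of the 7 windows, those of Lfng and Irx2, and in 21.6% of all 32851 windows of this length. A match is a description of the letters only. The Lfng window, chr5:140607091-140607340 on the plus strand, held 2 matches, shown in capitals, and is printed because it is the only one of the 7 with a match on each strand. Lfng itself had a ratio of 0.01, and Dll1, the gene with the lowest ratio of the 10, had no match in either of its windows.
Lfng: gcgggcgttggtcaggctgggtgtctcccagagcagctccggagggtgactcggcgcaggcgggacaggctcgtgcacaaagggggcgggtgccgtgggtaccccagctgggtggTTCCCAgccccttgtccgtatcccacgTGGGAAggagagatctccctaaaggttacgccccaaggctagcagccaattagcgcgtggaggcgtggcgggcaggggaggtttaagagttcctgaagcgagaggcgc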

How the data were processed

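The members and gene lists were chosen with earlier results of these data known. Per the file headers, the deposited scanner output gives each spot's intensity, its background, a processed intensity already background-subtracted and dye-normalized, and quality flags. They also hold a log10 ratio of Cy5 over Cy3, per the file headers. The authors' deposited value table gives log2 ratios, which matched the scanner's ratios turned to mutant over WT (r = 0.9996 and 0.9997 across probes, both medians 0). For Agilent Feature Extraction, version 8.1 stands in the submitters' processing notes and 9.1.3.1 in the file headers.

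Ratios were computed with R 4.3.3 and limma 3.58.1: normexp background correction (offset 50), loess within arrays with control spots at weight 0, and the sign turned on the mutant-Cy3 array. Outlier spots (18 and 26) were left out, no spot was saturated, and spots of a probe were averaged. The offset shrinks the ratios of dim probes. A gene took its brightest probe among those well above background on both arrays for at least 1 genotype, and counted at 2-fold or 1.2-fold in 1 direction on both arrays. Signals are the scanner's processed intensities. Of 41174 probes, 22951 matched a RefSeq symbol by accession, and the 10 genes were found by the file's own name. Named genes were every member, a fixed set of Notch and Irx genes, the up to 4 largest ratios of each other pathway list, up to 3 of each cell type list and genes counted at 1.2-fold. Adam17, Aph1a, Psenen and Notch4 were added after their values were seen, and 1 gene of the pathway list is counted but not reported here by name. The steps were tested on simulated dye-swap arrays. The E15.5 comparison, planned if probe sets could be named, was not run.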

Additional observations from a re-analysis of the deposited data

How the results depend on the processing

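Under all 9 alternatives none of the 10 genes was 2-fold apart. At 1.2-fold the count was 1, Dll1, and Dll1 was counted under each of the 9. The count was 2 with the scanner software's ratios and 2 with the deposited value table (Dll1 and Irx2, where 15% of all genes counted), and 4 with median centring (Notch1, Dll1, Irx1 and Irx2, where 16.2% of all genes counted). With single arrays it was 2 to 3, being 2 (Dll1 and Irx2, with 14.5% of all genes) on the mutant-Cy5 array alone and 3 (Notch1, Dll1 and Heyl, with 18.8% of all genes) on the mutant-Cy3 array alone, where the rule needs only that array. The cause of the other shifts was not tested. Median centring put the all-gene median at -0.11. Relative to that median Dll1 stood at -0.37, Irx2 at -0.33, Heyl at -0.28 and Notch2 at -0.03. The Dll1 ratio ranged from -0.48 to -0.31. Notch1, Dll1 and Irx2 kept their sign under all alternatives, and the other 7 genes changed sign under at least 1. Averaging probes moved Irx1 to 0.03 and Irx2 to -0.10. No paired analysis was possible because both PND3 arrays hold the same pools and no test was made, and the E15.5 alternatives, replicate block included, were not run because its probe sets had no gene names here. Small differences near the gap between arrays, and dim probes such as that of Lfng, limit what these arrays show.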

Other observations

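Of 7 collecting duct genes, 3 were at least 1.2-fold higher in the mutant pool on both arrays, against 3.21% of all measured genes: Avpr2, the vasopressin receptor, at 0.60, Aqp2, the vasopressin-regulated water channel, at 0.49, and Scnn1g, a subunit of the epithelial sodium channel, at 0.43. As with the other lists, these 7 genes were chosen with earlier results of these data known. Summed signals of the 7 were 54074 and 47706 in the mutant pool, against 45583 and 42369 in the WT pool. Aqp2 gave signals of 20292 and 18569 in the mutant pool, against 14632 and 13029 in the WT pool, and the pools did not overlap. Gata3, a transcription factor of the same lineage, was higher as well. Slc4a1, an anion exchanger of acid-secreting collecting duct cells and of red blood cells, was lower at -0.61. The other 3 were not counted: Aqp3, a water channel, stood at -0.02 with 0.08 and -0.13 on the arrays, Foxi1, a transcription factor of acid-secreting and base-secreting cells, at 0.09, and Atp6v1b1, a proton pump subunit, at 0.19.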
